A study of Mus musculus with 6 samples.

Results

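The antioxidant and glutathione genes described here are 10 mouse genes, Nqo1, Gclc, Gclm, Hmox1, Txnrd1, Prdx1, Gsta4, Gstm1, Sod2 and Cat. They were taken as every probe set that the annotation of the array platform maps to one of these symbols, out of 8252 genes named in all, which gave 14 of 12422 probe sets that are not array controls. All 10 genes had at least 1 probe set, and all 14 probe sets passed the filter on dim signals that left 7453 probe sets to test. Both Prdx1 probe sets are also annotated to Gm21399, a Prdx1 pseudogene, so their values belong to that pair of genes and not to Prdx1 alone.

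RNA came from a mouse fibroblast line derived from NIH3T3, labelled 35/1-22. All cells in every group carry the cooperating oncogenes c-myc and Ha-ras under a Tet-off promoter that doxycycline keeps silent. All of them also make, all the time, IRF-1 fused to the human estrogen receptor (IRF-1hER), a growth-suppressing transcription factor of the interferon response that estradiol activates. The estradiol group (n = 2) was grown without doxycycline and with estradiol (48 h, with a labelled concentration of 1 mM), a state meant to have the oncogenes on and IRF-1 active. The withdrawal group (n = 2) was grown without doxycycline and without estradiol, which is meant to switch the oncogenes on. The doxycycline group (n = 2) received doxycycline at 2 µg/ml, which is meant to keep the oncogenes off. Doxycycline replicate 2 carries both agents in its title but only doxycycline in its treatment field, which placed it here. Each RNA sample was read on 1 Affymetrix array as a MAS5 signal, the brightness of a probe set on a linear scale. Replicate 1 was extracted with an RNeasy kit and replicate 2 with TRIzol in each group. Separate cultures are not stated for the replicates, and the p-values may thus reflect technical spread alone.

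Array similarity followed the labels only in part. Of 7453 probe sets, 16 differed at least 2-fold between estradiol replicate 1 and withdrawal replicate 1, while 920 differed between withdrawal replicates 1 and 2. Fewer differed between withdrawal replicate 2 and the doxycycline arrays, with 324 for doxycycline replicate 1 and 582 for doxycycline replicate 2. Withdrawal replicate 1 and estradiol replicate 2 differed in 242. Within the other groups it was 250 for estradiol and 283 for doxycycline. The Myc probe set had signals of 31.9 and 28.1 in the estradiol group, 25.7 and 118.5 in the withdrawal group and 62.3 and 49.6 in the doxycycline group, and it is not stated whether it reads the transgene. These Myc signals run against the labels on both estradiol arrays and on withdrawal replicate 1, which lay below both doxycycline arrays, so the oncogene state named for each group rests on the labels alone. The Irf1 probe set had 224.7 and 155.2 in the estradiol group, 211.8 and 204.3 in the withdrawal group and 219.1 and 319.8 in the doxycycline group. Of 13 fibroblast markers, 8 had signals above 100 on every array, among them Col1a1 and Col1a2, while Vim did not exceed 40.7 and Fap did not exceed 13.2. The summed signal of these markers was 15911.5 to 21124.2 in the estradiol group, 21083.3 to 25866.5 in the withdrawal group and 27439.2 to 29293.1 in the doxycycline group, and its part in the results below was not tested. Of the markers of epithelial, endothelial, macrophage and lymphoid cells, only Cd14 exceeded 100 on every array.

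Cells meet reactive oxygen with a set of enzymes that share glutathione, thioredoxin and NADPH as sources of reducing power. Many of these genes are known targets of the transcription factor NRF2, which binds antioxidant response elements and is released from its inhibitor KEAP1 by electrophiles and oxidants. In fibroblasts, oncogenic Ras and Myc are known both to raise oxidant production and to raise NRF2-dependent transcription. An array of bulk RNA cannot tell fewer cells of a type from less RNA per cell.

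No antioxidant or glutathione probe set passed the test in any of the 3 comparisons, and the share that separated cells with and without doxycycline on every array was close to that of all probe sets. Gclm, Txnrd1 and 1 of 2 Nqo1 probe sets had higher signals on all 4 arrays without doxycycline than on both doxycycline arrays, which makes 3 of 14, against 13.4% of all probe sets. Hmox1 had lower signals on all 4, which makes 1 of 14, against 11.3% of all. Gstm1, Sod2, Cat, Gsta4, Nqo1 94350_f_at and both probe sets shared by Prdx1 and Gm21399 overlapped between withdrawal and doxycycline cells. They ran in opposite directions in replicates 1 and 2 in that comparison. Fold changes are given on the log2(signal + 32) scale. For dim probe sets such as those of Nqo1, Gclc and Gsta4 it gives smaller changes than ratios of plain signal would.

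**Figure D1:**
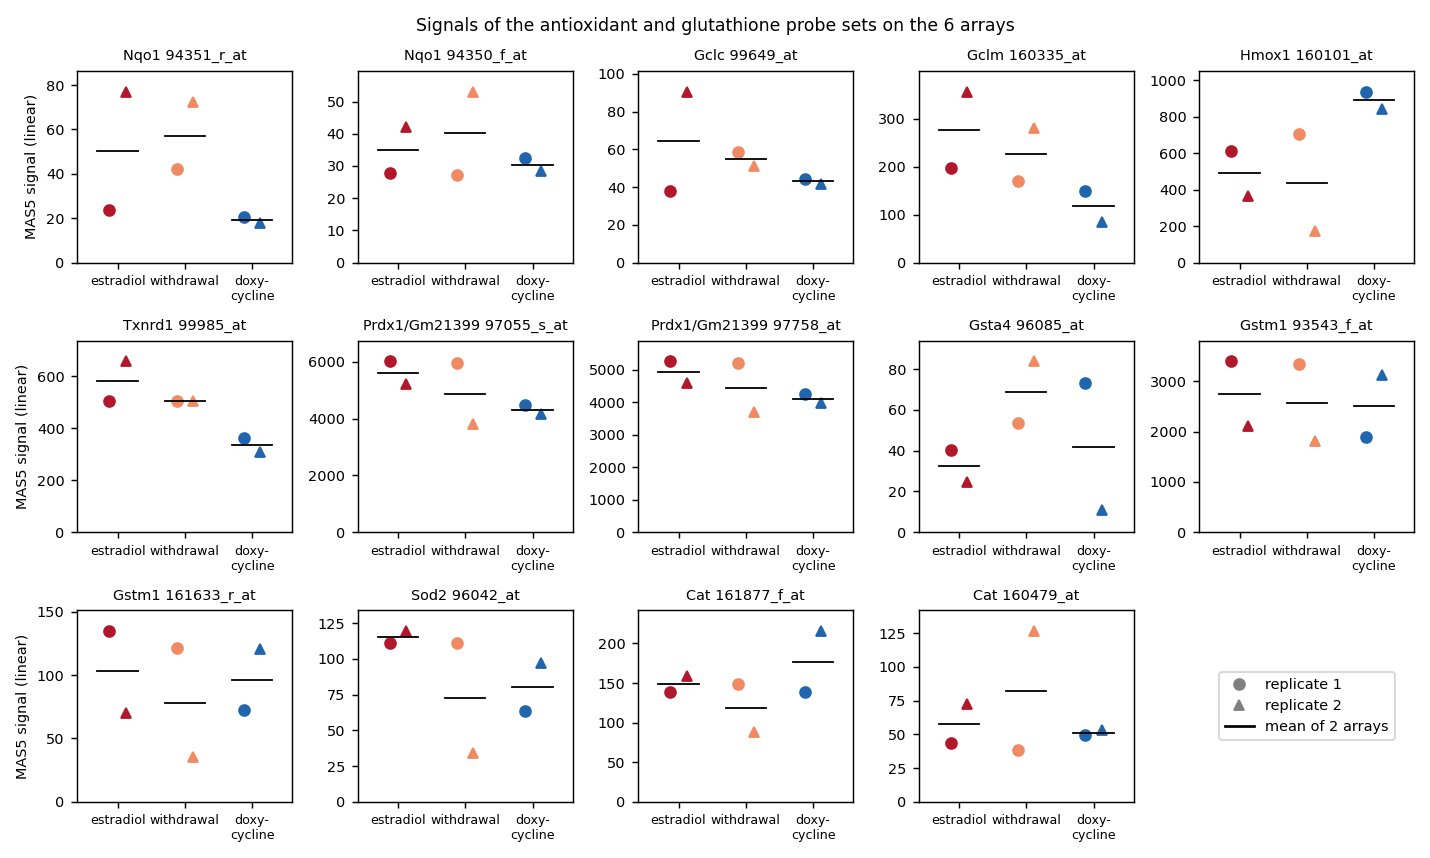
MAS5 signals (vertical axis, linear, from 0) of the 14 probe sets on the 6 arrays, by group (horizontal axis), with circles for replicate 1, triangles for replicate 2 and a line at the mean of 2 arrays. Gclm, Txnrd1 and Nqo1 94351_r_at lie lowest in the doxycycline group, Hmox1 lies highest there with 938.7 and 841.0, and withdrawal replicate 2 is the lowest point for 7 of the 14 probe sets.

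Glutathione is made in 2 steps, and the first is set by glutamate-cysteine ligase, whose catalytic subunit is Gclc and whose modifier subunit is Gclm. Gclm (160335_at) had signals of 197.7 and 356.7 in the estradiol group, 169.9 and 281.4 in the withdrawal group and 150.3 and 84.5 in the doxycycline group. Every array without doxycycline thus lay above both doxycycline arrays, and the estradiol and withdrawal groups overlapped. The log2 fold change was 0.79 for withdrawal against doxycycline (SE 0.38, 95% interval -0.08 to 1.66, limma adjusted p = 0.925). For estradiol against doxycycline it was 1.04 (SE 0.38, 95% interval 0.17 to 1.91), with an unadjusted p of 0.0252 that did not pass across all probe sets (limma adjusted p = 0.306). Most of the difference stood in replicate 2, where withdrawal differed from doxycycline by 1.43, against 0.15 in replicate 1. Without withdrawal replicate 2 the Gclm difference between withdrawal and doxycycline was 0.47, and without doxycycline replicate 2 it was 0.46. The Gclm difference between estradiol and doxycycline ran from 0.66 to 1.42 with any 1 array left out.

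Gclc (99649_at) was dim, with signals of 38.1 and 90.6 in the estradiol group, 58.5 and 51.2 in the withdrawal group and 44.3 and 41.7 in the doxycycline group. Both withdrawal arrays lay above both doxycycline arrays, while the estradiol arrays held the lowest and the highest of the 6 signals. Gclc stood at 0.21 for withdrawal against doxycycline (SE 0.31, limma adjusted p = 0.954) and 0.31 for estradiol against doxycycline (SE 0.31, limma adjusted p = 0.684). Both values were smaller than those of the modifier subunit, and that difference was not tested.

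Thioredoxin reductase 1, the product of Txnrd1, is the cytosolic selenoenzyme that keeps thioredoxin reduced with electrons from NADPH. Txnrd1 (99985_at) had signals of 504.1 and 659.0 in the estradiol group, 506.4 and 504.7 in the withdrawal group and 361.9 and 307.7 in the doxycycline group. The arrays without doxycycline all lay above those with it, and the withdrawal arrays differed by under 2 signal units. Between these arrays 920 of 7453 tested probe sets and 4 of 14 members differed at least 2-fold, so most stayed under 2-fold. The log2 fold change was 0.56 for withdrawal against doxycycline (SE 0.28, 95% interval -0.08 to 1.19, limma adjusted p = 0.925). Replicate 1 alone gave 0.45 and replicate 2 gave 0.66. For estradiol against doxycycline it was 0.73 (SE 0.28, 95% interval 0.10 to 1.37), with an unadjusted p of 0.0283 and a limma adjusted p of 0.317. Leaving out any 1 array kept the Txnrd1 difference between 0.45 and 0.66 for withdrawal and between 0.55 and 0.92 for estradiol, each against doxycycline.

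Peroxiredoxin 1, the product of Prdx1, is an abundant cytosolic enzyme that reduces peroxides and is in turn reduced by thioredoxin. The 97055_s_at probe set, shared by Prdx1 and Gm21399, had signals of 6029.0 and 5217.2 in the estradiol group, 5958.5 and 3796.1 in the withdrawal group and 4492.7 and 4155.9 in the doxycycline group. The other shared probe set, 97758_at, had 5270.1 and 4589.5 in the estradiol group, 5208.9 and 3690.3 in the withdrawal group and 4262.3 and 3974.7 in the doxycycline group. In both, the estradiol arrays lay above the doxycycline arrays, and withdrawal replicate 2 was the lowest of the 6. Estradiol against doxycycline gave log2 fold changes of 0.37 (SE 0.30) and 0.26 (SE 0.29), with limma adjusted p of 0.618 and 0.725. Withdrawal against doxycycline gave 0.14 and 0.09, which became -0.19 and -0.16 without withdrawal replicate 1.

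Promoter sequence was looked at for the NRF2 element. Gclm, Txnrd1 and Nqo1 94351_r_at had stood on the same side of doxycycline cells on all arrays, and Hmox1 on the other side. RefSeq promoter windows (GRCm38.p6, 250 bases before to 50 after a start site) were matched for 7 of 10 genes, in 10 windows. Hmox1, Gclc and Gsta4 had no window, so their promoters were not searched. The core of the antioxidant response element was searched as TGACNNNGC on both strands, and 3 of the 10 windows held it, 1 each for Gclm, Txnrd1 and Prdx1, against 12.4% of all 32851 windows. The windows of Nqo1, Gstm1, Sod2 and Cat did not hold it. All 3 matches read on the minus strand of the printed sequence, so the capitals show the reverse complement of the core, each with 20 bases on either side. The stretches lie at chr3:122245403-122245451 for Gclm, chr10:82859094-82859142 for Txnrd1 and chr4:116685446-116685494 for Prdx1, all on the plus strand and upstream of the start site.
Gclm: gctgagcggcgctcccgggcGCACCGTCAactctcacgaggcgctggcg
Txnrd1: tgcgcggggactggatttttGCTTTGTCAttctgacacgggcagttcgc
Prdx1: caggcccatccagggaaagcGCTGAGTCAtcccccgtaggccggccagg
The Prdx1 match overlaps a TGAGTCA, the letters that AP-1 factors are known to bind, and a second TGAGTCA match lies in the same window on the minus strand. TGAGTCA on either strand stands in 5.2% of all windows and in that of no other matched member. The Txnrd1 match lies in 1 of the 3 windows of that gene. A match describes letters only.

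NAD(P)H quinone dehydrogenase 1, the product of Nqo1, reduces quinones in a single step that avoids radicals and is a widely used readout of NRF2. Nqo1 was read by 2 dim probe sets, and their suffixes mark them as probe sets whose probes can cross to related sequences or were chosen under relaxed rules. The 94351_r_at probe set had signals of 23.5 and 77.1 in the estradiol group, 42.0 and 72.4 in the withdrawal group and 20.4 and 18.0 in the doxycycline group. The 94350_f_at probe set had 27.7 and 42.0 in the estradiol group, 27.3 and 53.1 in the withdrawal group and 32.4 and 28.3 in the doxycycline group. Only the first of them separated the groups with and without doxycycline, and both had higher signals in replicate 2 than in replicate 1 in the estradiol and withdrawal groups. Withdrawal against doxycycline gave 0.78 (SE 0.36, limma adjusted p = 0.925) in the first probe set and 0.19 (SE 0.28, limma adjusted p = 0.954) in the second. Estradiol against doxycycline gave 0.60 (SE 0.36) and 0.09 (SE 0.28), with 1.13 and 0.30 in replicate 2 and 0.08 and -0.11 in replicate 1.

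Heme oxygenase 1, the product of Hmox1, breaks heme down to biliverdin, iron and carbon monoxide and is induced by heme, oxidants and heavy metals. Hmox1 (160101_at) had signals of 611.3 and 367.6 in the estradiol group, 703.4 and 173.4 in the withdrawal group and 938.7 and 841.0 in the doxycycline group. All arrays without doxycycline lay below both doxycycline arrays, which is the opposite side from Gclm, Txnrd1 and Nqo1 94351_r_at. In the estradiol and in the withdrawal group, replicate 2 had the lower signal. Hmox1 stood at -1.24 for withdrawal against doxycycline (SE 0.55, 95% interval -2.51 to 0.02, limma adjusted p = 0.925) and -0.86 for estradiol against doxycycline (SE 0.55, 95% interval -2.12 to 0.40, limma adjusted p = 0.509). The withdrawal difference was -0.40 in replicate 1 and -2.09 in replicate 2, and leaving out the withdrawal arrays 1 at a time gave -0.32 (replicate 2 out) and -2.16 (replicate 1 out). The estradiol difference from doxycycline was -0.52 without estradiol replicate 2 and -1.20 without estradiol replicate 1.

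On the log2(signal + 32) scale Hmox1 had the widest range among the brightest probe sets of the 10 genes, at 2.24. In plain signal its highest array was 5.41-fold its lowest, less than the 7.77-fold of the dim Gsta4 probe set. The named genes whose log2 signals ran most like it over the 6 arrays were Hacd3, an enzyme of very long fatty acid elongation (Pearson r = 0.998), the splicing-related Zranb2 (r = 0.994), the vesicle tethering subunit Trappc3 (r = 0.988), the eIF2-alpha phosphatase subunit Ppp1r15b (r = 0.983) and the G protein subunit Gnai3 (r = 0.977). Trappc3 had signals of 308.1 and 141.0 in the estradiol group, 288.4 and 51.7 in the withdrawal group and 395.3 and 317.5 in the doxycycline group. These were the highest correlations among the tested probe sets that carry 1 gene symbol, over 6 arrays that share their groups and scaling, and they are given as a description.

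Glutathione S-transferases join glutathione to electrophiles, and Gsta4 is known for its activity on 4-hydroxynonenal, a product of lipid peroxidation. Gsta4 (96085_at) had signals of 40.5 and 24.8 in the estradiol group, 53.7 and 83.9 in the withdrawal group and 73.3 and 10.8 in the doxycycline group. It was the sole member whose estradiol and withdrawal arrays did not overlap, with both estradiol arrays lower, against 10.2% of all probe sets. That log2 fold change was -0.64 (SE 0.42, limma adjusted p = 1.00), split into -0.24 for replicate 1 and -1.03 for replicate 2. The doxycycline arrays held the lowest and the second highest of the 6 signals. Withdrawal against doxycycline was 0.57 (SE 0.42), and -0.08 without doxycycline replicate 2.

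Gstm1 belongs to a family of closely related mu-class transferases, and the suffix of its bright probe set marks probes that can read several members of a gene family. Its dimmer probe set, 161633_r_at, has a suffix of the kind described above for Nqo1. The 93543_f_at probe set had signals of 3398.8 and 2111.2 in the estradiol group, 3335.5 and 1815.5 in the withdrawal group and 1884.2 and 3114.3 in the doxycycline group. The 161633_r_at probe set had 135.0 and 70.1 in the estradiol group, 121.0 and 35.4 in the withdrawal group and 72.3 and 120.5 in the doxycycline group. Both probe sets were high on replicate 1 of the groups without doxycycline and on replicate 2 of the doxycycline group, and their log2 signals correlated at 0.93 over the 6 arrays. Withdrawal against doxycycline therefore gave 0.81 and 0.55 in replicate 1 but -0.77 and -1.18 in replicate 2. The fitted values were 0.02 (SE 0.41) and -0.31 (SE 0.43), with limma adjusted p of 0.998 and 0.953.

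Sod2 encodes the mitochondrial manganese superoxide dismutase, which turns superoxide into hydrogen peroxide and is also known as a target of NF-kappaB. Sod2 (96042_at) had signals of 111.1 and 119.6 in the estradiol group, 111.2 and 34.3 in the withdrawal group and 63.4 and 96.7 in the doxycycline group. Withdrawal replicate 2 stood below the other 5 arrays, and both estradiol arrays lay above both doxycycline arrays. Estradiol against doxycycline gave 0.41 (SE 0.37, limma adjusted p = 0.656). Replicate 1 alone gave 0.58 and replicate 2 gave 0.24. Estradiol against withdrawal gave 0.60 (SE 0.37, limma adjusted p = 1.00), the mean of -0.00 in replicate 1 and 1.19 in replicate 2, and 0.04 without withdrawal replicate 2.

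Cat encodes catalase, the peroxisomal enzyme that splits hydrogen peroxide, and its 2 probe sets disagreed. The brighter of them, 161877_f_at, has a suffix of the kind described above for Nqo1. The 161877_f_at probe set had signals of 138.5 and 159.0 in the estradiol group, 149.1 and 88.4 in the withdrawal group and 138.2 and 216.1 in the doxycycline group. The 160479_at probe set had 43.2 and 72.4 in the estradiol group, 38.1 and 126.7 in the withdrawal group and 49.7 and 52.8 in the doxycycline group. Withdrawal replicate 2 was the lowest array in the first and the highest in the second, and their log2 signals correlated at -0.64 over the 6 arrays. Withdrawal against doxycycline gave -0.48 (SE 0.31) and 0.34 (SE 0.39), with limma adjusted p of 0.935 and 0.948. No direction for Cat can be read from these values.

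**Figure D2:**
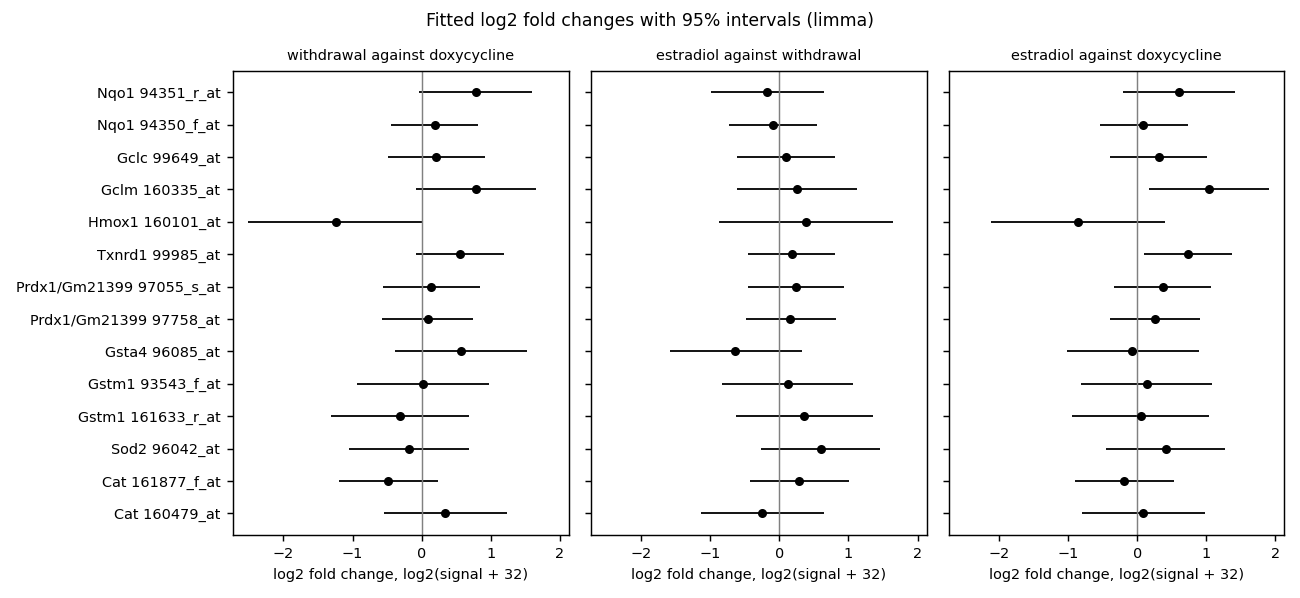
Fitted log2 fold changes on the log2(signal + 32) scale (horizontal axis) of the 14 probe sets in the 3 comparisons, with 95% intervals from limma over 2 arrays a group. The intervals leave out 0 only for Gclm (0.17 to 1.91) and Txnrd1 (0.10 to 1.37) in estradiol against doxycycline, before adjustment over all probe sets.

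The first comparison asks what the oncogenes change, although doxycycline itself differs between its groups too. For withdrawal against doxycycline limma called 0 of 14 member probe sets at an adjusted p under 0.05, against 0.0% of all probe sets, and 0 members had an unadjusted p under 0.05, against 4.37% of all. The log2 fold change was above 0 in 10 of 14, against 51.8% of all, with a median of 0.16, against 0.01 over all probe sets. The groups did not overlap, with higher signals in withdrawal cells, in 4 of 14 (Nqo1 94351_r_at, Gclc, Gclm and Txnrd1), against 16.8% of all. Hmox1 was the 1 member that was lower without overlap, against 15.0% of all.

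Within replicate 1, no member differed by 2-fold between withdrawal and doxycycline, against 6.55% of all probe sets. Within replicate 2, 6 of 14 did, against 7.81% of all, and they went both ways. The doxycycline array of replicate 2 is the array titled with both agents, and its part in these differences was not tested. Nqo1 94351_r_at (1.06), Gclm (1.43) and Gsta4 (1.44) had higher signals on withdrawal replicate 2 than on doxycycline replicate 2. Hmox1 (-2.09), Gstm1 161633_r_at (-1.18) and Cat 161877_f_at (-1.04) had lower ones. Withdrawal replicate 2 held the lowest of the 6 signals in 7 of 14 member probe sets, against 19.6% of all, and doxycycline replicate 2 held it in 4, against 20.8% of all.

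The second comparison asks what active IRF-1 changes in cells labelled as having the oncogenes on, although estradiol may act without it. For estradiol against withdrawal limma called 0 of 14 member probe sets, against 0.0% of all probe sets, and 0 had an unadjusted p under 0.05, against 0.698% of all. The members ran from -0.64 for Gsta4 to 0.60 for Sod2, with values above 0 in 10 of 14, against 51.0% of all. Their median was 0.17, against 0.01 over all probe sets. The groups did not overlap in 1 of 14, with lower signals in estradiol cells (Gsta4), against 10.2% of all, and in 0 of 14 with higher signals, against 11.5% of all. In replicate 1 the 14 members differed by -0.42 to 0.19 and had a median size of 0.09, the same as the 0.09 of all probe sets. Replicate 2 gave -1.03 to 1.19, with a median size of 0.51, against 0.33 of all. No member differed by 2-fold in replicate 1, against 0.215% of all, and 2 of 14 (Gsta4 and Sod2) did in replicate 2, against 8.71% of all. Without withdrawal replicate 2 the Hmox1 difference was -0.54 in place of 0.38.

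The third comparison asks what oncogenes and active IRF-1 change together and cannot separate them. Its reference group includes doxycycline replicate 2, which carries estradiol in its title, and the part of that array was not tested. For estradiol against doxycycline limma called 0 of 14 member probe sets, against 0.0% of all probe sets. Gclm and Txnrd1 made 2 of 14 with an unadjusted p under 0.05, against 14.0% of all, a share close to that background. Values above 0 were seen in 11 of 14, against 50.4% of all. Estradiol cells had higher signals without overlap in 6 of 14 (Nqo1 94351_r_at, Gclm, Txnrd1, Sod2 and both probe sets shared by Prdx1 and Gm21399), against 27.0% of all. Hmox1 alone was lower without overlap, against 24.7% of all. Within replicate 1 no member differed by 2-fold between estradiol and doxycycline, against 6.51% of all, and within replicate 2 it was 4 of 14 (Nqo1 94351_r_at, Gclm, Txnrd1 and Hmox1), against 14.5% of all.

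**Figure D3:**
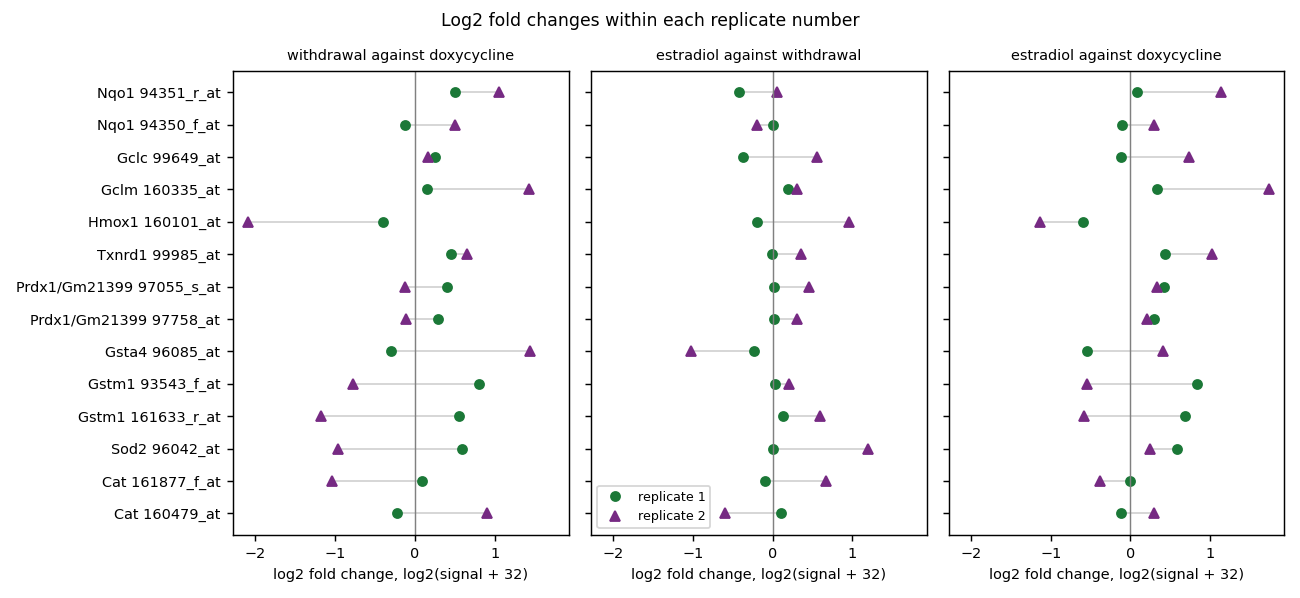
Log2 fold changes on the log2(signal + 32) scale (horizontal axis) of the 14 probe sets within replicate 1 (circles, RNeasy) and replicate 2 (triangles, TRIzol), joined by a grey line, for the 3 comparisons. For withdrawal against doxycycline both replicates lie above 0 in 4 of 14 (Nqo1 94351_r_at, Gclc, Gclm and Txnrd1), against 25.9% of all probe sets. Both lie below 0 in 1 (Hmox1), against 22.0% of all, and the other members have replicates on opposite sides of 0. Txnrd1 lies at 0.45 and 0.66.

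Setting the mean of the withdrawal and estradiol groups against doxycycline in the same fit, a contrast added after seeing the data, gave 0.91 for Gclm (SE 0.33, limma adjusted p = 0.364), 0.64 for Txnrd1 (SE 0.24, limma adjusted p = 0.369), 0.69 for Nqo1 94351_r_at (SE 0.31, limma adjusted p = 0.414) and -1.05 for Hmox1 (SE 0.48, limma adjusted p = 0.422). The contrast called 0 of 14 members, against 0.0% of all probe sets, and 2 of 14 had an unadjusted p under 0.05, against 12.4% of all. Members had values above 0 in 11 of 14, against 50.7% of all.

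Other genes of the same pathways were taken from a list of 82, of which 56 were tested, 12 were too dim and 14 had no probe set that names them alone. Limma called 0 of these 56 in each of the 3 comparisons. At an unadjusted p under 0.05 there were 3 of 56 for withdrawal against doxycycline, against 4.37% of all probe sets, 0 for estradiol against withdrawal, against 0.698%, and 7 for estradiol against doxycycline, against 14.0%. Withdrawal against doxycycline had values above 0 in 34 of 56 (median 0.06), against 51.8% of all. Estradiol against withdrawal had them in 30 (median 0.03), against 51.0%, and estradiol against doxycycline in 36 (median 0.10), against 50.4%.

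Gsr, the glutathione reductase that returns oxidised glutathione to its reduced form, had the smallest unadjusted p among the higher genes of that list in both comparisons with doxycycline. Its signals were 425.9 and 493.2 in the estradiol group, 388.6 and 179.2 in the withdrawal group and 139.0 and 119.9 in the doxycycline group. None of these groups overlapped. Higher signals without overlap were found in 27.0% of all probe sets for estradiol against doxycycline. For withdrawal against doxycycline the share was 16.8%, and for estradiol against withdrawal it was 11.5%. Estradiol against doxycycline gave 1.61 (SE 0.35, limma adjusted p = 0.255), which was 1.42 for replicate 1 and 1.79 for replicate 2, and withdrawal against doxycycline gave 0.89 (SE 0.35, limma adjusted p = 0.925).

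Gss, which completes glutathione, had signals of 239.1 and 165.1 in withdrawal cells and 167.5 and 66.9 in doxycycline cells (0.72, SE 0.38), while its other probe set gave -0.46. Gstp1, a pi-class transferase, had 3309.0 and 3006.0 in withdrawal cells and 2301.1 and 2184.6 in doxycycline cells (0.49, SE 0.27). Prdx3, the mitochondrial peroxiredoxin, had 584.4 and 472.7 in estradiol cells, 356.6 and 329.9 in withdrawal cells and 315.6 and 293.9 in doxycycline cells. Estradiol against doxycycline gave 0.73 for Prdx3 (SE 0.27, limma adjusted p = 0.305), and estradiol against withdrawal gave 0.57 (SE 0.27). Prdx3 was higher with estradiol without overlap in both, as were 27.0% and 11.5% of all probe sets and 16 and 7 of the 56 listed genes. Me1, the malic enzyme that supplies NADPH, differed by 0.90 (SE 0.37) between estradiol and doxycycline. Tkt, the transketolase of the pentose phosphate path, had 1193.4 and 830.6 in estradiol cells and 1230.8 and 161.5 in withdrawal cells, a difference held by 1 array.

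Among the lower genes of the list, Txnip, which binds and inhibits thioredoxin, had signals of 314.6 and 158.1 in the estradiol group, 321.8 and 693.2 in the withdrawal group and 618.3 and 881.3 in the doxycycline group. Estradiol against doxycycline gave -1.59 (SE 0.44, limma adjusted p = 0.255), while its other probe set gave 0.23. Xdh, whose enzyme can make superoxide while breaking down purines, gave -2.42 (SE 0.40, limma adjusted p = 0.255) in that comparison, with signals of 87.4 and 38.6 in the estradiol group, 105.4 and 164.7 in the withdrawal group and 326.2 and 643.6 in the doxycycline group. Txnrd3, a relative of Txnrd1, had 291.3 and 267.9 in withdrawal cells and 411.8 and 504.3 in doxycycline cells (-0.65, SE 0.28). This direction, opposite to that of Txnrd1, rests on a single probe set, with a suffix of the kind described above for Nqo1. The other Txnrd3 probe set was too dim to test, with 31.1 and 14.9 in withdrawal cells and 22.5 and 14.7 in doxycycline cells. Whether the related reductases differ in direction was not tested. Cyba, a subunit of the NADPH oxidases, gave -0.62 (SE 0.30) for estradiol against doxycycline. Idh1, which makes NADPH in the cytosol, had 465.7 and 388.0 in estradiol cells and 416.6 and 1026.0 in withdrawal cells (-0.59, SE 0.42). That Idh1 difference was held by withdrawal replicate 2, with 0.15 in replicate 1 and -1.33 in replicate 2. None of the genes of the list named here passed the test in any comparison.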

How the data were processed

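The authors' deposited values are MAS5 signals of 6 one-colour Affymetrix arrays, an intensity on a linear scale, per the submitters' processing notes, which give no version or settings. Trimmed means after leaving out 2% at each end were 150.09 to 150.1, and arrays were rescaled to their common value. Signals became log2(signal + 32), and the 66 controls and the dimmest 40% of the rest by mean log2 value were left out. The remaining 7453 were fitted with limma 3.58.1 in R 4.3.3, with 1 mean per group over all arrays, an intensity trend and Benjamini-Hochberg adjustment over all 7453. P-values are two-sided with a threshold of 0.05. Precision is limited by having only 2 arrays per group. Probe sets were named from the platform annotation, of which 396 carry several symbols.

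The members, lists, tests and alternatives were chosen with earlier results of these data known. Named besides the members were the 3 genes of the wider list with the smallest unadjusted p in each direction per comparison, read by their brightest probe set, and the 5 genes most like the member with the widest range of log2(signal + 32). Replicate numbers go with the extraction method, so by the labels they pair the arrays. Deviations from group means correlated at 0.449 between the estradiol and withdrawal groups, at -0.0284 between estradiol and doxycycline and at -0.00727 between withdrawal and doxycycline. The fit was tested on simulated data with noise drawn independently for each array. That test therefore does not cover deviations shared by arrays of the same replicate number.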

Additional observations from a re-analysis of the deposited data

How the results depend on the processing

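Limma called 0 member probe sets in all 3 comparisons under pseudocounts of 16 and 64, no filter on dim probe sets, quantile normalization, no intensity trend, the replicate number as a block, and without any 1 array, where a lone array is assumed to vary like the other groups. The blocked fit also called 0 of all probe sets in each comparison, and changed no call. Leaving out 1 array gave 0 to 26 calls over all probe sets for withdrawal against doxycycline, 0 to 17 for estradiol against withdrawal and 0 to 133 for estradiol against doxycycline. The smallest adjusted p of a member over the alternatives was 0.52, 0.135 and 0.137 in that order. Under quantile normalization Gstm1 93543_f_at turned to -0.03 for withdrawal against doxycycline. The cause was not tested.

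Leaving out 1 array turned the sign of some log2 fold changes, none of which had passed the test with all arrays. For withdrawal against doxycycline the ranges were -0.07 to 0.45 for Nqo1 94350_f_at, -0.19 to 0.46 and -0.16 to 0.34 for 97055_s_at and 97758_at (Prdx1 and Gm21399), -0.08 to 1.22 for Gsta4, -0.41 to 0.46 for Gstm1 93543_f_at, -0.90 to 0.28 for Gstm1 161633_r_at, -0.74 to 0.37 for Sod2 and -0.25 to 0.93 for Cat 160479_at. For estradiol against withdrawal they were -0.66 to 0.31 and -0.36 to 0.16 for Nqo1 94351_r_at and 94350_f_at, -0.31 to 0.50 for Gclc, -0.13 to 0.63 for Gclm, -0.54 to 1.30 for Hmox1, -0.00 to 0.36 for Txnrd1, -0.09 to 0.56 and -0.08 to 0.41 for 97055_s_at and 97758_at, -0.31 to 0.55 and -0.23 to 0.95 for Gstm1 93543_f_at and 161633_r_at, and -0.01 to 0.58 and -0.84 to 0.34 for Cat 161877_f_at and 160479_at. For estradiol against doxycycline they were -0.06 to 0.25 for Nqo1 94350_f_at, -0.10 to 0.71 for Gclc, -0.71 to 0.58 for Gsta4, -0.21 to 0.50 and -0.30 to 0.41 for Gstm1 93543_f_at and 161633_r_at, and -0.46 to 0.08 and -0.15 to 0.33 for Cat 161877_f_at and 160479_at.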
